A study of Mus musculus with 35 samples.

Results

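The genes of the retinoblastoma pathway followed here through ChIP-Seq of developing mouse retinae were Rb1, Rbl1, Rbl2, E2f3, Cdkn1b, Mycn, Trp53, Mdm2, Mdm4 and Syk. They were listed by name for their roles in this tumor, and the 10 genes stood among 17275 coding genes whose starts were placed on the genome build of the files, mm9. Brg1, the ATPase of the SWI/SNF chromatin remodeling complexes, was measured at P0 with an antibody to FLAG, in retinae of a knock-in strain that makes Brg1-FLAG (1 library). H3K27Ac was measured in wild-type retinae at P0 (2 libraries), P12 (1), P14 (2) and P21 (2), and in Brg1-deficient retinae at P12 (2). H3K4me3 was measured in the same groups, with 1 Brg1-deficient library. H3K27me3 was measured in wild-type retinae with the antibody labelled AB1 in 2 libraries each of P0, P14 and P21, and with AB3 at P12 in wild-type (2) and Brg1-deficient retinae (1). The Brg1-deficient retinae carried Chx10-Cre and Brg1 Lox/Lox. Chx10-Cre acts in retinal progenitor cells in a mosaic pattern. For ChIP-Seq the paper preferentially chose mice with small eyes, in which Cre expression was more extensive, to reduce the share of wild-type cells. The Brg1-deficient retinae can still hold stripes of cells that kept Brg1. The labels give these samples as BRG1 -/- and do not say how many retinae or animals went into a library, so p-values measure only the spread between these libraries, which may be technical.

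The RB family (Rb1, Rbl1 and Rbl2, which encode RB, p107 and p130) binds E2F transcription factors and holds back the genes of S phase until cyclin-dependent kinases phosphorylate RB. Loss of both copies of RB1 starts retinoblastoma in children. MYCN and E2F3 drive proliferation and are gained in some of these tumors, and p27, the product of Cdkn1b, inhibits cyclin-dependent kinases as progenitor cells leave the cell cycle. MDM2 and MDM4 (also called MDMX) restrain p53, which Trp53 encodes. SYK is a tyrosine kinase best known from blood cells that is switched on in human retinoblastoma. H3K4me3 marks promoters, H3K27Ac marks active promoters and enhancers, and H3K27me3 is the mark of Polycomb repression.

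The promoters of these genes carry different control sequences. Peaks were assigned within 2 kb of a start and need not cover the bases shown here. At Rbl2, for example, the Brg1 peak nearest the start ran from 235 to 838 bp past it. The 250 bases before each listed start were searched on both strands for the E2F site in the forms TTTCCCGC, TTTCGCGC, TTTGCCGC and TTTGGCGC, for the cell cycle homology region TTTGAA (CHR), for the E-box CACGTG, for the GC box GGGCGG and for the CCAAT box CCAAT. Sequences are from RefSeq (GRCm38.p6), and 9 of the 10 genes had at least 1 start in that table, all but Rb1. E2F sites were found at Mycn, Rbl1 and E2f3, against 1.86% of all 32851 promoters in the table. At Mycn there were 3 matches on top of or next to each other, beginning 183, 179 and 168 bases before the start, and the first and the second overlap. Rbl1 had 1 match 18 bases and E2f3 had 1 match 11 bases before the start. The E2F matches are in capitals in the first 3 sequences below, and the 2 GC boxes of Mdm2, which has no E2F match, are in capitals in the fourth. All 4 genes lie on the minus strand and the sequences are written 5′ to 3′ in the direction of transcription. The positions are chr12:12941837-12942086 for Mycn, chr2:157204535-157204784 for Rbl1, chr13:29986064-29986313 for E2f3 and chr10:117710759-117711008 for Mdm2.
Mycn: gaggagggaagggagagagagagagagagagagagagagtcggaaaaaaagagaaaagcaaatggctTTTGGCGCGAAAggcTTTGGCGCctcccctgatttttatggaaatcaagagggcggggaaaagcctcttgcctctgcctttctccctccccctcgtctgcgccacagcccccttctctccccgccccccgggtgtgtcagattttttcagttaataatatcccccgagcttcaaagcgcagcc
Rbl1: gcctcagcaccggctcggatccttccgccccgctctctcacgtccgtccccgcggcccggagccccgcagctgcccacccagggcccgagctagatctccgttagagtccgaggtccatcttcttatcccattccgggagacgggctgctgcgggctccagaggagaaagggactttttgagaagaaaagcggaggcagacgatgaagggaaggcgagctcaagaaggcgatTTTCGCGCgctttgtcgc
E2f3: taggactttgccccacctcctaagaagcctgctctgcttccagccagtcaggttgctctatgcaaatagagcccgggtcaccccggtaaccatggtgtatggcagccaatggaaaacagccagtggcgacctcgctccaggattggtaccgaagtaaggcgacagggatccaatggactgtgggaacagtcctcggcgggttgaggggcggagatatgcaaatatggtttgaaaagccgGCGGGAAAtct
Mdm2: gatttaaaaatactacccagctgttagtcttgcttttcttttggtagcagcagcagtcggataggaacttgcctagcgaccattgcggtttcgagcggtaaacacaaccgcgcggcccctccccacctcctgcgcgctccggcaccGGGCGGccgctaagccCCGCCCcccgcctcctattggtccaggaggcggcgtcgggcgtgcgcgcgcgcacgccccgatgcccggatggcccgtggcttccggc

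The other motifs were more common in the table: 16.0% of all promoters held a CHR, 6.02% an E-box, 32.7% a GC box and 33.8% a CCAAT box. Mycn and E2f3 also held a CHR, as did Rbl2, and Cdkn1b held 2 CCAAT boxes and 1 GC box. Neither start of Mdm4 and neither start of Syk held any of the 5 motifs. The first of the 2 listed starts of Syk was rich in G and C (71.6%, against a median of 52.4% over all promoters) and in CpG (0.846 of the number its base composition gives, against a median of 0.373). The Mdm4 start that carried the marks had a G and C content of 47.2% and a CpG ratio of 0.361. A match is only a run of letters, and binding of any of these factors was not measured.

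Heights are the fold enrichment over background that the peak caller gave, and a start was assigned the highest peak within 2 kb of it. Starts of the neighboring gene Wrap53 lie within 2 kb of the Trp53 start. The heights and widths given for Trp53 may therefore belong to either gene. For the histone marks each height was divided by the median of its library over the promoters that had a peak in all libraries of the mark (4979 promoters for the 9 H3K27Ac libraries and 10089 for the 8 H3K4me3 libraries). A relative height of 1 is therefore the median promoter of that library. The medians ranged from 5.86 to 18.0 for H3K27Ac and from 23.8 to 63.4 for H3K4me3. The number of reads is unknown from these files. The number of H3K27Ac peaks was 17588 and 29304 at P0, 47404 at P12, 17433 and 50005 at P14, and 18718 and 45833 at P21, so the first replicate of each of P0, P14 and P21 gave far fewer peaks than the second. In the Brg1-deficient libraries it was 40465 and 42887. H3K4me3 gave between 18534 and 24124 peaks. Of the marker genes with a placed start, Crx, Nrl, Pde6b and Sag of the rod photoreceptors all had an H3K27Ac peak in every library of P12 and later, and 1 of the 4 had one in each P0 library. The 2 placed progenitor markers, Sox2 and Pax6, had summed relative heights of 2.51 and 2.97 at P0 and of 0.0 to 0.428 in the later wild-type libraries. Of the retinal pigment epithelium markers, Rpe65 and Rlbp1 had no peak in any library, and Tyr gave a summed height of 0.0 to 0.705. None of the placed markers of endothelium (1), microglia and blood (3), muscle (1) and liver (2) had an H3K27Ac peak in any library. The start of Smarca4, which encodes Brg1, had peaks of both marks in every library, but a mark at its start does not test the deletion.

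All 10 genes had a Brg1 peak within 2 kb of a start at P0, as had 54.1% of all coding genes. All 10 also had H3K4me3 in all 8 libraries. Of all genes with H3K4me3 in all 8 libraries, 85.4% had a Brg1 peak. The Brg1 peak was highest at Mdm2 (height 14.6, the percentile 99.0 of the 9354 genes with a Brg1 peak at their start), followed by Cdkn1b (13.2, percentile 98.0), E2f3 (12.2, percentile 96.8) and Mycn (10.5, percentile 93.1). Trp53 (8.91), Rb1 (8.44), Rbl1 (7.88) and Mdm4 (7.59) were also above the median of 5.86. Rbl2 (5.51) and Syk (5.06) were below it. There was 1 Brg1 library, so these heights have no replicate check.

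**Figure D1:**
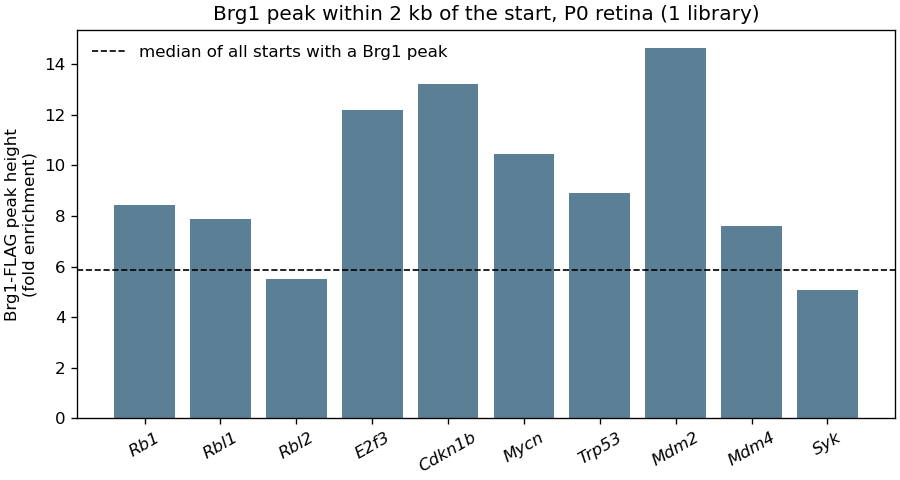
Height of the highest Brg1-FLAG peak within 2 kb of a start of each gene in P0 retinae, in fold enrichment over background (1 library). The bars run from 5.06 at Syk to 14.6 at Mdm2, and the dashed line is the median of 5.86 over all genes with a Brg1 peak at their start.

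Mycn stood apart by the length of its peak. A single Brg1 peak of 6811 bp (chr12:12943698-12950508, mm9) ran from −1872 to 4938 bp relative to the start and so covered most of the gene, which is 5.7 kb long. Its width was at percentile 99.7 of the genes with a Brg1 peak at their start, whose median was 901 bp. The H3K4me3 peak at Mycn was also wide in every library, from 4899 to 5757 bp, between percentiles 98.2 and 99.6 of its library. The H3K27Ac peak was 2450 and 4224 bp wide at P0. In later wild-type libraries the widest H3K27Ac peak at this start was 3806 bp at P12, 540 and 2496 bp at P14, and 349 and 2450 bp at P21. The lower values at P14 and P21 came from the libraries with fewer peaks. In the Brg1-deficient libraries of P12 the widest peak was 4723 and 2552 bp. Among the other genes, Cdkn1b, E2f3 and Trp53 had H3K4me3 peaks at or above percentile 91.1 of width in all 8 libraries. Those at Trp53 may also mark the nearby starts of Wrap53. Syk, by contrast, had H3K4me3 peaks between 681 and 1439 bp, at or below percentile 26.6.

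In the genes and 20 kb on each side there were 38 Brg1 peaks, from 1 at Mycn and Rbl1 to 10 at Trp53. Of these, 20 overlapped an H3K27Ac peak in both P0 libraries (52.6%, Wilson 95% interval 37.3 to 67.5%, counting error only). Of all 50861 Brg1 peaks, 26.6% did. The windows always hold a start with H3K4me3, and the share rose to 68.0% with 10 kb on each side. Several strong peaks of the windows lay away from the start of the gene itself. Downstream of Cdkn1b, a Brg1 peak of height 12.7 and 3645 bp (chr6:134876352-134879996, mm9) lay 6951 to 10595 bp past the start and therefore beyond the end of the gene. It carried H3K27Ac in both P0 libraries (15.9 and 11.4), in 4 of the 5 later wild-type libraries and in both Brg1-deficient libraries (6.31 and 10.1). The remaining strong peaks sat at neighboring genes: in an intron of Rb1 at the start of Lpar6 (8.13), past the end of Rbl2 at the starts of Aktip (8.91), upstream of Mdm4 by Pik3c2b (11.0) and downstream of Trp53 by Atp1b2 (11.3). Whether any of them acts on the pathway gene was not measured.

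H3K27Ac was present at the start of 9 of the 10 genes in all 9 libraries, all but Syk, against 28.8% of all coding genes. Of the genes with H3K4me3 in all 8 libraries, as all 10 had, the share was 49.3%. In relative height, both P0 libraries at Mdm4, Mycn, Mdm2 and Rbl1 lay above all 4 libraries of P14 and P21, and above the wild-type P12 library too. That was 4 of 9 genes, and 11.3% of all 4979 promoters showed the same order. No gene of the 9 lay lower in both P0 libraries than in all 4 later ones, against 14% of promoters. The order depends on the scaling. As deposited, P14 replicate 2 lay above P0 replicate 2 at Mdm2 (26.44 and 26.39) and at Rbl1 (15.05 and 13.75), while Mdm4 and Mycn kept the order. The changes of single genes did not pass the test. Of the 9 genes tested, 0 were called between P0 and P14 (limma, 1.49% of all 4981 promoters called) and 0 between P0 and P21 (2.27% called). An unadjusted p under 0.05 was found for 2 and 5 of the 9, and for 623 and 766 of all 4981 promoters. Between P14 and P21, 0 of 9 were called and 0 had an unadjusted p under 0.05, with 0.0% of promoters called and 249 promoters at an unadjusted p under 0.05. Median log2 changes of the 9 genes were −0.44 (P14 against P0) and −0.15 (P21 against P0), and those of all promoters were −0.00246 and 0.00143.

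Mdm4, whose product binds and inhibits p53, showed the largest difference among the 9. Its relative heights were 1.78 and 2.68 at P0, 0.408 at P12, 0.746 and 0.975 at P14, and 0.978 and 0.923 at P21. Both P0 libraries were above every later library. The log2 change was −1.36 ± 0.43 (SE) at P14 (adjusted p = 0.0907, limma) and −1.20 ± 0.43 at P21 (adjusted p = 0.128), with 2 libraries per stage. These marks lay at the second of its 2 listed starts, which is downstream of the first. The first start had no peak of H3K4me3 within 2 kb.

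Mycn, the transcription factor gene amplified in some retinoblastomas, was also higher at P0. Its relative heights were 1.84 and 1.74 at P0, 0.725 at P12, 0.968 and 0.862 at P14, and 0.897 and 0.759 at P21. Every later wild-type library was below 1, and both P0 libraries were above 1.7. The log2 change was −0.97 ± 0.42 at P14 (adjusted p = 0.288, limma) and −1.11 ± 0.42 at P21 (adjusted p = 0.161). H3K27Ac at the start of Mdm2, the ubiquitin ligase of p53, was 2.69 and 2.28 at P0, 1.56 at P12, 1.60 and 1.47 at P14, and 1.04 and 1.5 at P21. It stayed above the median promoter in all 9 libraries. Its log2 change at P21 was −0.99 ± 0.42 (adjusted p = 0.242, limma). At Rbl1 the values were 1.42 and 1.19 at P0, 0.698 at P12, 1.0 and 0.838 at P14, and 0.578 and 0.872 at P21, and the log2 change at P21 was −0.87 ± 0.43 (adjusted p = 0.31, limma).

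Cdkn1b went the other way in its means, but its libraries overlapped. The relative heights were 0.661 and 1.55 at P0, 1.1 at P12, 2.36 and 1.46 at P14, and 3.18 and 1.21 at P21. At P14 and P21 the higher value came from the library with fewer peaks, and its part in this spread was not tested. The log2 changes were 0.88 ± 0.46 (adjusted p = 0.436, limma) and 0.96 ± 0.46 (adjusted p = 0.299). Rb1 (0.825 to 1.69 over the 9 libraries), Rbl2 (0.553 to 1.03), E2f3 (0.931 to 2.39) and Trp53 (0.615 to 1.87) overlapped between P0 and the later stages. Their log2 changes were under 0.75 in size. In the order of the medians over all 9 libraries, Mdm2 (1.55), Cdkn1b (1.46), Rb1 (1.37), E2f3 (1.18) and Trp53 (1.09) were above the median promoter, and Mdm4 (0.978), Mycn (0.897), Rbl2 (0.880) and Rbl1 (0.872) were at or below it. Rbl2 and Mdm2 were the only pair whose ranges (0.553 to 1.03 and 1.04 to 2.69) did not overlap. The progenitor markers given above were also lower after P0, and their part in these values was not tested. In whole retinae, fewer cells that carry a mark and less of the mark per cell cannot be told apart.

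**Figure D2:**
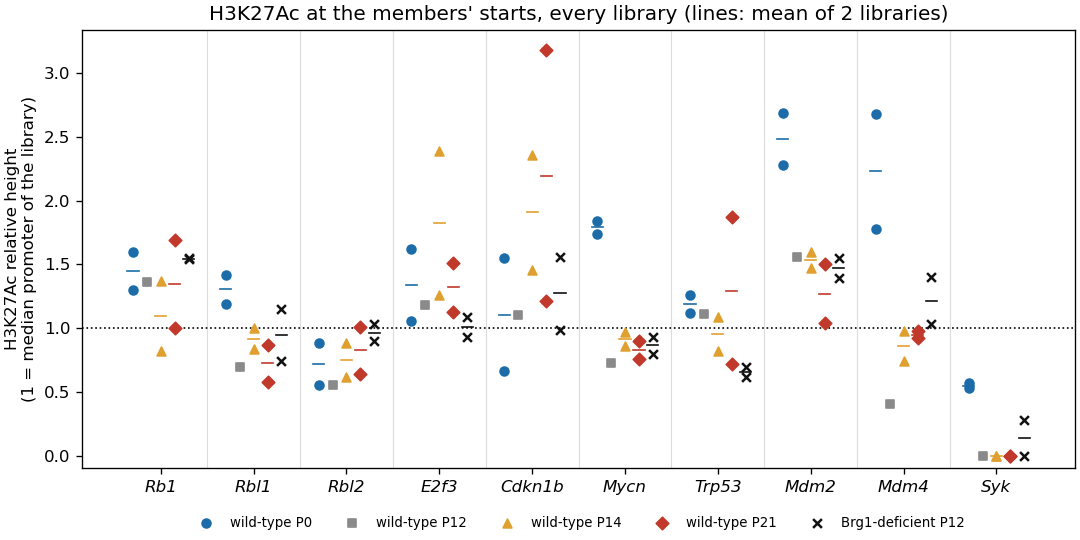
H3K27Ac relative height (1 is the median promoter of the library, dotted line) at the start of each gene in all 9 libraries. Symbols are single libraries and short lines are the means of 2 libraries. At Mdm4, Mycn, Mdm2 and Rbl1 both P0 libraries lie above every later wild-type library, and Syk is at 0 in all 5 of these.

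Syk was the only gene of the 10 with a called change. Its H3K4me3 fell from P0 to P21 by 1.71 ± 0.38 on the log2 scale (adjusted p = 0.000406, limma), which is 0.307 of the P0 height. It was 1 of 10 genes called in this comparison, in which 9.17% of 10109 promoters were called and 8.37% were called as lower at P21. With the main scaling 81 promoters were called higher and 846 lower, and with quantile normalization 130 and 167, where Syk was still called lower. The heights as deposited were 31.5 and 43.7 at P0, 19.7 at P12, 14.1 and 21.5 at P14, and 14 and 9.41 at P21. In relative height these were 0.830 and 1.12 at P0, 0.356 at P12, 0.418 and 0.611 at P14, and 0.220 and 0.395 at P21. Both P0 libraries were above all later libraries on either scale. At P14 the log2 change from P0 was −0.93 ± 0.38 (adjusted p = 0.216, limma) and from P14 to P21 it was −0.78 ± 0.38 (adjusted p = 0.573).

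H3K27Ac at Syk was left out of the main test, which needs a peak in all 6 libraries. With promoters that had a peak in at least 2 of the 6, all 10 genes were tested and 0 were called in any stage comparison (limma). With this filter 0 of all 9937 promoters were called in any of these comparisons, so the missing call says nothing particular about Syk. An H3K27Ac peak was found at the start in both P0 libraries (height 5.64 and 6.58) and in none of the 5 later wild-type libraries, and 1 of the 2 Brg1-deficient libraries had one (4.46). Syk was also the only gene of the 10 with an H3K27me3 island over its start in all 9 H3K27me3 libraries, P0 included, as had 12.5% of all coding genes and 14.8% of those with H3K4me3 in all 8 libraries. The islands at the start were between 2999 and 7799 bp wide. H3K4me3 and H3K27me3 were therefore both called at this start at every stage, and whether they lie on the same chromosomes or in the same cells cannot be told apart in whole retinae.

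The call for Syk rests on a few libraries. The adjusted p was 0.055 without P0 replicate 2, with a log2 change of −1.49, and 0.109 without P21 replicate 1, with a change of −1.29. With heights as deposited it was 0.319, at a change of −1.69. The start of Syk was placed with genes within 2 Mb, since the offset from 5 Mb put it 3722 bp from the nearest P0 H3K4me3 peak. With the 5 Mb offset Syk had no peak in all 6 libraries and was not tested.

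H3K4me3 at the other 9 genes was close to or above the median promoter in most libraries. Of the 10 genes, 0 were called at P14 against P0 (limma, 3.57% of promoters called, 76 higher and 285 lower, or 118 and 124 with quantile normalization) and 0 at P21 against P14 (0.168% called). An unadjusted p under 0.05 was found for 2 of the 10 in each of these comparisons. Of all 10109 promoters, 1271 had one at P14 against P0 and 835 at P21 against P14. In relative height, both P0 libraries were above all P14 and P21 libraries at Syk and Cdkn1b (2 of 10 genes, 15.3% of promoters), and both were below them at none (7.7% of promoters). As deposited, Cdkn1b overlapped, with 58.61 in P0 replicate 1 and 76.14 in P21 replicate 1. Mycn was 1.47 and 1.55 at P0, 1.1 at P12, 1.1 and 1.60 at P14, and 0.801 and 0.889 at P21. Its P21 libraries were the lowest, and the log2 change from P0 was −0.84 ± 0.38 (adjusted p = 0.201, limma). E2f3 had a like order, with 1.17 and 1.81 at P0, 1.45 at P12, 1.65 and 1.48 at P14, and 0.979 and 0.754 at P21. Its log2 change at P21 was −0.76 ± 0.38 from P0 (adjusted p = 0.281, limma) and −0.87 ± 0.38 from P14 (adjusted p = 0.48). Rbl1 was higher at P14 (1.80 and 1.53) than at P0 (0.681 and 1.18), by 0.89 ± 0.38 on the log2 scale (adjusted p = 0.251, limma), and its P21 libraries (1.02 and 1.71) overlapped both. Cdkn1b was 1.55 and 1.94 at P0 and between 1.05 and 1.41 in the later wild-type libraries. Rb1 (0.993 to 1.96 over 8 libraries), Rbl2 (0.842 to 1.47), Trp53 (0.626 to 1.41), Mdm2 (1.09 to 1.73) and Mdm4 (0.695 to 2.21) had log2 changes under 0.75 in size in the 3 comparisons between stages. The medians over the 8 libraries ran from 0.487 at Syk to 1.46 at E2f3, and the ranges of all 10 genes overlapped.

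**Figure D3:**
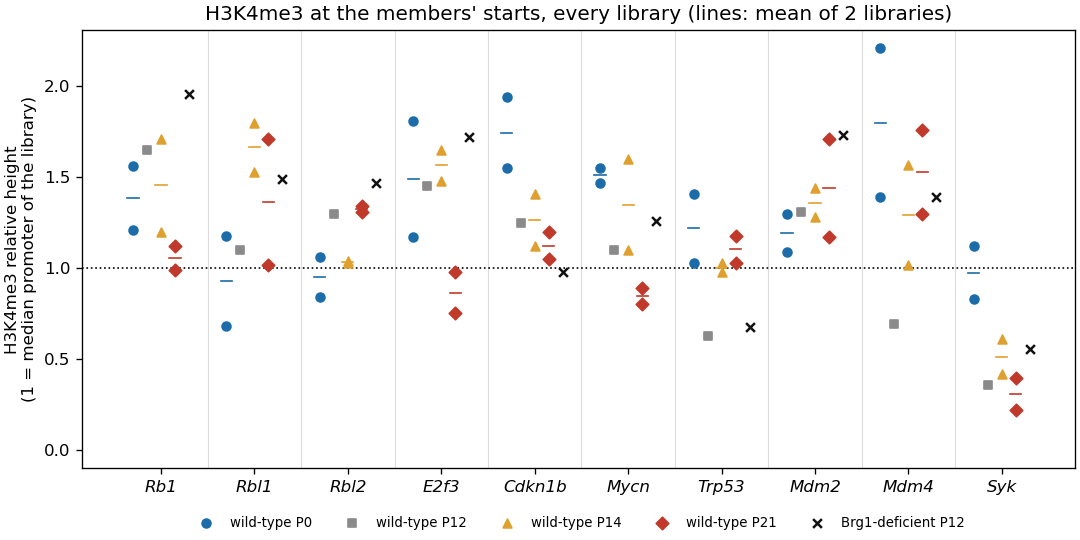
H3K4me3 relative height (1 is the median promoter of the library, dotted line) at the start of each gene in all 8 libraries. Symbols are single libraries and short lines are the means of 2 libraries. Syk lies at 0.830 and 1.12 at P0 and at 0.220 and 0.395 at P21, the lowest of the 10 genes.

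Away from starts, H3K27Ac appeared after P0 at E2f3 and Mdm2. Peaks of the 9 libraries were merged into regions, and 36 regions in the windows of the 10 genes lay over 2 kb from any coding gene start. Of these, 3 were absent in both P0 libraries and present in all 5 later wild-type libraries, against 4.06% of 54275 such regions in the genome, and 0 showed the reverse (1.71%). In E2f3 (chr13, minus strand), 1 region lay 58.0 to 61.0 kb into the gene and had heights of 8.83 at P12, 7.61 and 7.75 at P14, and 9.65 and 11.0 at P21. Another region lay upstream, from −4.27 to −2.43 kb relative to the E2f3 start, with 6.22 at P12, 8.11 and 12.1 at P14, and 4.72 and 5.35 at P21. It adjoined a region at the start itself, from −2.38 to −0.159 kb, and so was not clearly separate from the start. The region at the start had a peak in 1 P0 library (3.67) and in all 5 later wild-type libraries (8.64 to 18.2). Neither the region inside the gene nor the upstream region touched a Brg1 peak of P0. Of the 36 regions, 34 had no peak in either P0 library, among them all 15 of E2f3, and 73.3% of all such regions in the genome had none. The third region lay 32.1 to 35.5 kb past the start of Mdm2, within the neighboring gene Cpm, and had heights of 12.3 at P12, 8.25 and 12.9 at P14, and 7.65 and 9.20 at P21. It touched a weak Brg1 peak (3.94). The pattern requires a peak in every later wild-type library, so the P14 and P21 libraries with few peaks had all 3 regions by definition. The part of the number of peaks in the absence at P0 was not tested. All 3 were also present in both Brg1-deficient libraries at P12, with heights of 6.72 and 8.18 in the E2f3 gene, 7.31 and 9.32 upstream of it, and 7.89 and 11.0 downstream of Mdm2. Over the genome, 25.1% of the 2203 regions with this pattern touched a Brg1 peak and 93.1% were present in both Brg1-deficient libraries. At Trp53, a region from 7.12 to 14.3 kb past the start was present in all 7 wild-type libraries. Its height was lower at P0 (7.03 and 5.53) than at P12 (12.9), P14 (19.8 and 28) and P21 (14 and 16.1), as deposited and without a test.

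**Figure D4:**
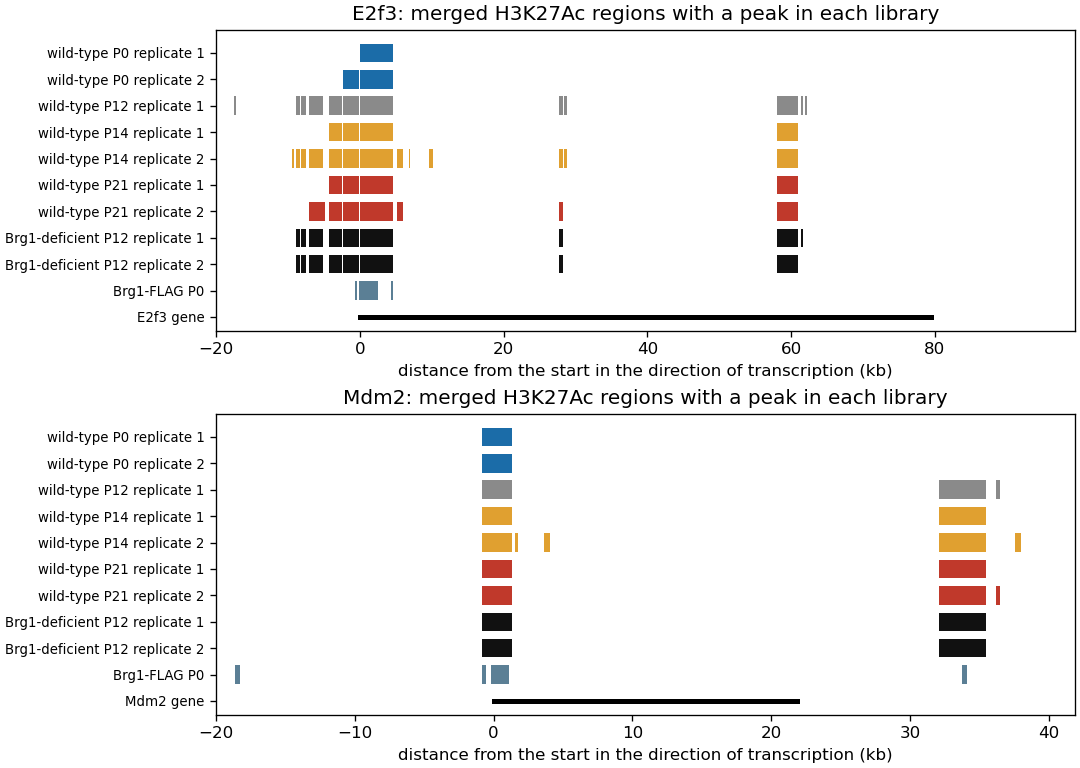
Merged H3K27Ac regions in the windows of E2f3 and Mdm2 by distance from the start in kb, drawn in the row of each library that has a peak there, with the Brg1-FLAG peaks and the gene below. The region 58.0 to 61.0 kb into E2f3 and the region 32.1 to 35.5 kb past the start of Mdm2 are drawn in every row but the 2 P0 rows.

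H3K27me3 islands were otherwise rare at these starts. Rb1 had 1 in 1 wild-type library of P12 and E2f3 had 1 in the Brg1-deficient library, and the other 7 genes had none, whereas 43.1% of all coding genes had an island in at least 1 library. Islands reached the windows of Trp53 and Mdm4 in all 7 libraries of P12 and later and in neither P0 library. Of 42050 single H3K27me3 regions in the genome, 2.1% had this pattern, and the share of gene windows of this size was not counted. The islands of the P0 libraries also covered less of the genome (96.6 and 114.1 Mb) than those of the later libraries (126.5 to 213.3 Mb). At Trp53 the islands lay between −33947 and −10149 bp relative to the start, over the neighboring genes Efnb3 and Wrap53. At Mdm4 they lay between −22212 and −13614 bp relative to the first start, by Pik3c2b. The starts of Trp53 and Mdm4 themselves had H3K27Ac in all 9 libraries of that mark.

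In Brg1-deficient retinae at P12, H3K27Ac at the 9 genes with a peak in all 9 libraries was not called as different from wild type in any case (0 of 9, limma, adjusted p = 1.0 for each; 0.0% of 4979 promoters called and 88 at an unadjusted p under 0.05). The wild-type group was 1 library, which the fit assumes to vary like the other groups. Both Brg1-deficient libraries were above the wild-type library at Rb1, Rbl1, Rbl2, Mycn and Mdm4 (5 of 9, 32.8% of promoters) and below it at E2f3, Trp53 and Mdm2 (3 of 9, 33.6%). Mdm4 had the largest difference and the only unadjusted p under 0.05. Its relative height was 0.408 in the wild-type library and 1.03 and 1.40 in the Brg1-deficient libraries, a log2 difference of 1.56 ± 0.48 (unadjusted p = 0.00283, adjusted p = 1.0, limma). The wild-type P12 value was also the lowest of all 7 wild-type libraries, and the Brg1-deficient values lay between those of P14 and those of P0. Rbl2 differed by 0.79 ± 0.49 (0.556 against 1.03 and 0.899) and Trp53 by −0.77 ± 0.51 (1.11 against 0.615 and 0.693). The standard errors are wide against these differences, and the missing calls do not show that the genotypes are alike. Some heights of the first Brg1-deficient library were equal between genes, 24.8 at both Rb1 and Mdm2, 14.9 at both E2f3 and Mycn and 16.4 at both Rbl2 and Mdm4. The values of this library thus come in coarse steps. Equal heights also occurred in other libraries, such as 7.218 at the Rbl2 start and by Pik3c2b in the wild-type P12 library of H3K27Ac. For H3K4me3, Rbl1 and Mdm2 were both 40.7 in wild-type P21 replicate 2.

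H3K4me3 at P12 was measured in 1 library per genotype, so there is no test. After scaling, 2 of 10 genes differed by more than 1.5-fold, Mdm4 and Syk, and 20.8% of 10089 promoters did. Mdm4 was 0.695 in the wild-type and 1.39 in the Brg1-deficient library, a ratio of 2.0, and Syk was 0.356 and 0.556, a ratio of 1.56. The ratio was above 1 at 9 of the 10 genes and at 52.2% of all promoters, between 1.09 at Trp53 and 2.0 at Mdm4, and below 1 at Cdkn1b alone (0.789). At Mdm4 every Brg1-deficient library of either mark was thus above its wild-type library. These directions depend on the scaling: as deposited, the height was higher in the Brg1-deficient library only at Mdm4 (38.4 and 51.0) and Syk (19.7 and 20.4) and lower at the other 8 genes, and 1 gene differed by more than 1.5-fold, Cdkn1b (68.9 and 36.1). The progenitor markers had summed H3K27Ac heights of 0.262 in the wild-type and 0.530 and 0.620 in the Brg1-deficient libraries at P12, and the rod markers 5.83 against 4.05 and 4.79. Their part in the values of Mdm4 and Syk was not tested.

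**Figure D5:**
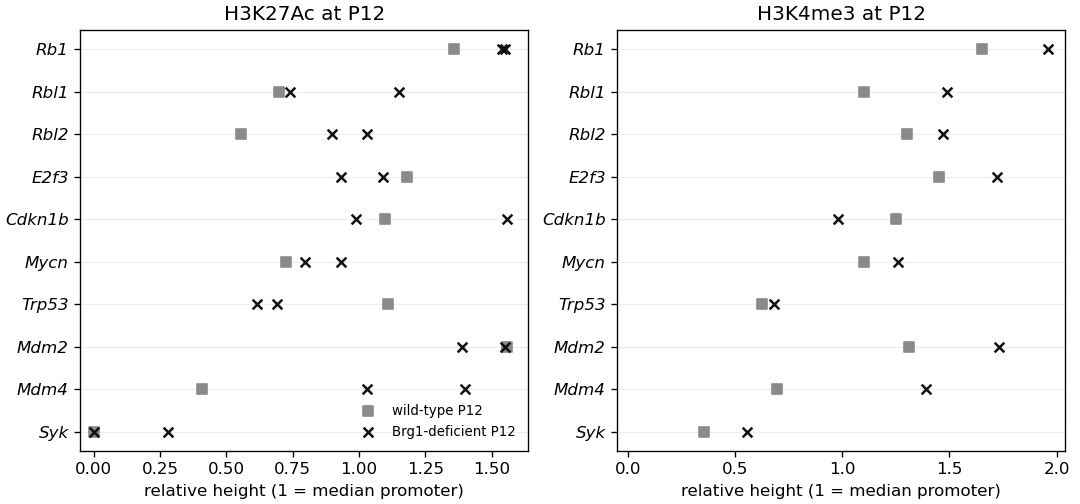
Relative height of H3K27Ac (left) and H3K4me3 (right) at P12, where squares are wild-type and crosses are Brg1-deficient libraries. At Mdm4 the wild-type library lies at 0.408 for H3K27Ac and 0.695 for H3K4me3, and the Brg1-deficient libraries lie at 1.03, 1.40 and 1.39.

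Other genes of the pathway were described from fixed lists. Of 31 other RB-E2F genes (E2F factors, cyclins, kinases, their inhibitors and the DREAM complex), 24 had a placed start, 21 had a Brg1 peak there, 21 had H3K4me3 in all libraries and 7 had H3K27Ac in all. Of these 7, 0 were called for H3K27Ac in any comparison, with 0 at an unadjusted p under 0.05 (limma). These comparisons called between 0.0% and 2.27% of all promoters. Of all coding genes, 54.1% had a Brg1 peak at the start, 58.4% had H3K4me3 in all libraries and 28.8% had H3K27Ac in all. For H3K4me3, 1 of 21 was called, Cdkn1a, which encodes the inhibitor p21 and was lower at P21 than at P0 (log2 change −1.14 ± 0.39, adjusted p = 0.0361, limma), in a comparison that called 9.17% of all promoters. Their median log2 change in that comparison was −0.13, and that of all promoters was −0.0782. Of 21 p53 pathway genes, 15 were placed, 12 had Brg1 at the start and 5 were tested for H3K27Ac. Gadd45a, which is induced by DNA damage, was the only 1 of these 5 called, higher at P14 than at P0 (1.66 ± 0.44, adjusted p = 0.0373, limma, 1.49% of promoters called), and Cdkn1a, which is also on this list, was the only 1 of 12 called for H3K4me3. Of 8 further genes gained or mutated in retinoblastoma, 6 were placed and all 6 had a Brg1 peak and H3K4me3 at the start. For H3K27Ac, 3 of them were tested and 1 was called at P14 and at P21 against P0, where 1.49% and 2.27% of all promoters were called. The median log2 change of these 3 was −0.28 at P14 and −0.76 at P21, so the median lay below 0 while the called gene was higher. Otx2, a homeobox gene of photoreceptors, had higher H3K27Ac at P14 (1.81 ± 0.46, adjusted p = 0.025, limma) and at P21 (1.88 ± 0.46, adjusted p = 0.0142) than at P0. Between genotypes at P12, 0 genes of the 3 lists were called, with 0 at an unadjusted p under 0.05, and 0.0% of all promoters were called.

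The gene whose heights were nearest to those of a given gene over the 17 libraries of both marks, in Euclidean distance of log2 relative heights, was Map3k1 for Rb1 (0.873), Nus1 for Rbl1 (0.993), Htt for Rbl2 (1.07), 4933434E20Rik for E2f3 (1.04) and Lpcat1 for Cdkn1b (1.29). It was Dmwd for Mycn (0.924), Bckdha for Trp53 (1.32), Zfp292 for Mdm2 (0.987) and Rpl14 for Mdm4 (1.47). The median distance to all other genes was between 2.53 at Rbl2 and 3.26 at Mdm4. Mdm4 thus had the most distant nearest gene among the 9.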

How the data were processed

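For each library the authors called peaks separately, and the deposited lists hold for every peak its fold enrichment over background, which is the height used here. The deposited lists also hold the −log10 q-value that the authors' peak caller computed for each peak, and its summit. The H3K27me3 files of the authors hold islands, with a score whose meaning is not given in the sources used here. The submitters' processing notes name BWA 0.5.9-r26, Picard 1.65, MACS2 2.0.9, SICER 1.1, bedtools 2.17.0 and the build mm9. Of the 35 samples, 27 with files were used, and the 8 input samples were not analysed here. Replicate numbers follow the titles (2 and 3 for H3K4me3 at P14).

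Gene starts (RefSeq, GRCm38.p6) were shifted by the offset that put most coding starts within 5 Mb on the chromosome within 1 kb of a wild-type P0 H3K4me3 peak. Where offsets from 5 Mb and 2 Mb differed by over 1 kb, the 2 Mb one was used (3410 genes, Syk among them). This put 59.9% of the starts within 1 kb of such a peak, against 6.7% when moved by 50 kb. Positions are approximate, since the offset is searched in steps and builds differ locally. All listed starts of a gene were used. Rb1 had no listed start, so the end of its span that lay in a peak was taken. The rule for the 2 offsets and the use of all starts were set after the data were seen.

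Log2 heights, scaled to the same median, were tested in limma 3.58.1 (R 4.3.3, moderated linear model, all 6 wild-type libraries of P0, P14 and P21, promoters with a peak in all 6, Benjamini-Hochberg at 0.05, no replicate block). The P12 comparison used all 9 H3K27Ac libraries. The scripts were tested on simulated data. The Wilson interval is from scipy 1.17.1. Named genes are the 10 members with the value in every library, and from each other list up to 3 called genes with the largest change. The fits give log2 changes in the text where they were at least 0.75 in size, a limit set after the data were seen. The members and lists were chosen with earlier results of these data known. Alternatives were other filters, scalings, windows, stages and offsets, the replicate number as a block, and leaving out each library.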

Additional observations from a re-analysis of the deposited data

How the results depend on the processing

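No change of 0.75 or more at the 10 genes turned its sign in any of 316 refits, and smaller changes did in 51 of 865. The changes were sorted by size in the same libraries that the refits reuse, so the kept signs are not an independent check. The numbers of promoters called moved far more. For H3K27Ac at P14 against P0 (74 called) they were 0 with promoters that had a peak in at least 2 of the 6 libraries, 0 with a pseudocount of 1 as well, 0 with heights as deposited, 26 after quantile normalization, 13 with peaks at a −log10 q of at least 10, 49 with the 5 Mb offset, and 2 to 142 when each library was left out. For P21 against P0 (113) they were 0, 0, 0, 72 and 16 in the first 5 of these settings, 197 with only the stages compared, and 0 to 200 without each library. The lowest values, 2 and 0, came without P0 replicate 2 and without P21 replicate 1, and the highest, 142 and 200, without P14 replicate 2. For H3K4me3, P14 against P0 (361) gave 11 as deposited, 192 at the stricter q and 100 to 443 without each library (100 without P14 replicate 3). P21 against P0 (927) gave 31 as deposited, 297 after quantile normalization and 376 to 933 without each library (376 without P21 replicate 1). P21 against P14 (17) gave 4, 32, 0, 0 and 11 in the first 5 settings, 3 with only the stages compared, and 0 to 115 without each library (115 without P21 replicate 2). The cause was not tested. With heights as deposited the median of all promoters shifted by 0.14, −0.50 and −0.61 in the H3K27Ac comparisons of P14 with P0, P21 with P0 and P21 with P14, by −0.18 in H3K4me3 of P14 with P0, and by 0.25 between genotypes.

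Of the 10 genes, the number called for H3K4me3 at P21 against P0 was 1, and 0 as deposited, with the 5 Mb offset, without P0 replicate 2 and without P21 replicate 1 (0 to 1 without each library). For H3K4me3 at P12, 49.4% of promoters passed 1.5-fold as deposited, and 1 of the 10 genes did as deposited, with the 5 Mb offset and with the outermost start, a setting chosen after seeing the data. At the stricter q, 5 genes kept H3K27Ac in every library, and the Brg1 peaks numbered 17, of which 88.2% overlapped H3K27Ac. With 10 kb on each side there were 25 peaks (68.0%), with 50 kb 61, and 31.6% had 50% of their length covered.

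The replicate numbers were not taken as pairs. Libraries with the same number had deviations correlated at r = 0.011 (P0 and P14), 0.002 (P0 and P21) and 0.237 (P14 and P21) for H3K27Ac and 0.182 (P0 and P21) for H3K4me3. With the replicate number as a block, 157 promoters were called for H3K27Ac at P14 and 228 at P21 against P0, and 1 of the 10 genes at P14, Mdm4 (adjusted p = 0.0423, limma, log2 change −1.36, against 0.0692 to 0.999 in its other settings). The number of reads behind each height is unknown, so no counting interval could be given.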
